A study of Oryza sativa Japonica Group with 36 samples.

Results

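The change in the rice flag leaf (FL, the uppermost leaf, just below the panicle) from 4 to 12 days after heading (DAH) was examined, an interval at the start of grain filling. The comparison used the 3 libraries of FL at 12 DAH and the 3 libraries of FL at 4 DAH, 6 of the 36 libraries of a time course of FL and second leaves (SL). Both groups were leaves of untreated, wild-type plants of the japonica cultivar Dongjin grown in a paddy field, and each library was made from the middle parts of 9 leaves. The replicates of a time point were harvested at the same time in the early morning, so leaf age, date and weather cannot be told apart. The p-values measure the spread between leaf pools within a harvest, shared over the 12 groups of leaf and time point of the series. They do not measure the spread between harvests.

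Leaves in early grain filling export sugars to the panicle and later take apart their chloroplasts and pass nitrogen and minerals on to the grain. Chlorophyll is made from glutamate through 5-aminolevulinic acid and a series of porphyrins, and is bound in the membranes by light-harvesting proteins. Cytosolic ribosomal proteins are needed wherever a leaf makes new protein.

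Values were CPM, read counts scaled to a common library size with TMM factors. The 6 libraries held 17194038 to 29789199 reads on genes, and a read was worth 0.0358 to 0.06 CPM. Log2 changes were taken as 12 over 4 DAH on quantile-normalized log2(CPM + 1) values, which understates the change of low genes. Called genes had a Benjamini-Hochberg adjusted p below 0.05 in limma over 22057 genes, and all adjusted p-values below are of this test unless another tool is named. The leaf label was checked against marker genes. All 6 leaf markers (light-harvesting proteins and the Rubisco small subunit) were above 1 CPM, with summed levels of 3326 to 4092 CPM at 12 DAH and 7627 to 10473 CPM at 4 DAH. Of 8 endosperm storage protein genes, only GLUA-2 exceeded 1 CPM in any of the 6 libraries. Of 6 markers of dividing cells only PCNA did so, and none of 5 pollen and anther markers did. Replicate 1 of 12 DAH stood somewhat apart, with correlations of 0.9813 and 0.9679 with its replicates and the fewest detected genes (26320), and counts without it are given below. In whole leaves, fewer cells of a type and less RNA per cell cannot be told apart.

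Between 4 and 12 DAH, 2947 genes rose (13.4% of those tested) and 3351 fell (15.2%), so that 28.6% were called. A change of at least 2-fold was found for 507 of the rising genes (2.3%) and 632 of the falling genes (2.87%), together 5.16%. Values of the 3 libraries of 12 DAH did not overlap those of 4 DAH for 43.6% of the tested genes (19.9% higher and 23.7% lower at 12 DAH) and for 93.2% of the called genes. The median log2 change of all tested genes was 0.00, and the median absolute change of the called genes was 0.64. Without replicate 1 of 12 DAH, 3404 genes rose and 3779 fell, and 89.2% of the 6298 calls remained with the same sign. No call changed sign when any of the 6 libraries was left out. Weaker calls were lost in this way, and where that held for a gene named below it is said at the end of the paragraph, with the highest adjusted p reached without a single library.

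Genes for light harvesting and chlorophyll synthesis fell. All 4 light-harvesting genes tested fell by at least 2-fold, with a median log2 change of -2.19. CAB2R, a chlorophyll a/b-binding protein of photosystem II, had 63.1, 119 and 111 CPM at 12 DAH, against 1030, 793 and 732 CPM at 4 DAH (log2 change -2.96 ± 0.29 SE, adjusted p = 9.7e-09). CAB1R, of the same family, had 171, 186 and 220 CPM at 12 DAH, against 1339, 952 and 1012 CPM at 4 DAH (-2.33 ± 0.47, adjusted p = 0.00041). In both genes all libraries of 12 DAH lay far below all libraries of 4 DAH. RCABP69 and LHCP fell by 2.06 and 1.58 on the log2 scale. Some members of this family are similar in sequence, so that reads may be split among them. The summed level of the 4 genes was 843 to 1148 CPM at 12 DAH and 4430 to 5997 CPM at 4 DAH.

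Of 18 chlorophyll synthesis genes, 13 fell (72.2%, against 15.2% of all tested genes) and 1 rose (5.56%, against 13.4%), with a median log2 change of -0.83. PORB, a light-dependent protochlorophyllide reductase, had 14.2, 12.7 and 11.8 CPM at 12 DAH, against 136, 124 and 134 CPM at 4 DAH (-3.18 ± 0.24, adjusted p = 1.5e-10). GSA, the aminotransferase that forms 5-aminolevulinic acid, had 72.9, 42 and 43.5 CPM at 12 DAH, against 238, 227 and 211 CPM at 4 DAH (-2.03 ± 0.14, adjusted p = 1.7e-11). Neither gene had overlapping groups. At the entry to the pathway, GluTR (glutamyl-tRNA reductase) fell by 0.94 on the log2 scale. At the branch to chlorophyll, the magnesium chelatase subunits CHLH, CHL9 and CHL1 fell by 0.77, 1.42 and 0.41. PORA, the second protochlorophyllide reductase, had 0.0548, 0.204 and 0.113 CPM at 12 DAH, against 1.44, 2.66 and 2.32 CPM at 4 DAH. CHLG, which codes for the chlorophyll synthase of the last step, moved the other way, with 216, 132 and 143 CPM at 12 DAH and 116, 120 and 116 CPM at 4 DAH (0.42 ± 0.12, adjusted p = 0.0094). The 4 genes not called were PPO, HEMD, DVR and CAO, with log2 changes of -0.19 to -0.27. ALADH fell with overlapping CPM groups, and was not called without quantile normalization (adjusted p = 0.051). The call of CHLG was lost without replicate 1 of 12 DAH (adjusted p = 0.084).

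Of 5 chlorophyll breakdown genes, 3 rose (60%, against 13.4% of all tested genes) and 1 fell (20%, against 15.2%). THF1, the member that fell, had 269, 228 and 211 CPM at 12 DAH, against 353, 332 and 330 CPM at 4 DAH (-0.48 ± 0.12, adjusted p = 0.0034). SGR, the stay-green protein that acts on chlorophyll a early in its breakdown, had 38.1, 29.9 and 35.9 CPM at 12 DAH, against 13.9, 12.4 and 14 CPM at 4 DAH (1.36 ± 0.21, adjusted p = 1.6e-05). NYC1, a chlorophyll b reductase, rose by 0.63 and RCCR1, which acts late in the pathway, rose by 0.80 on the log2 scale. The second chlorophyll b reductase gene, NOL, averaged 26 CPM at 12 DAH and 23.2 CPM at 4 DAH and was not called (adjusted p = 0.49).

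**Figure D1:**
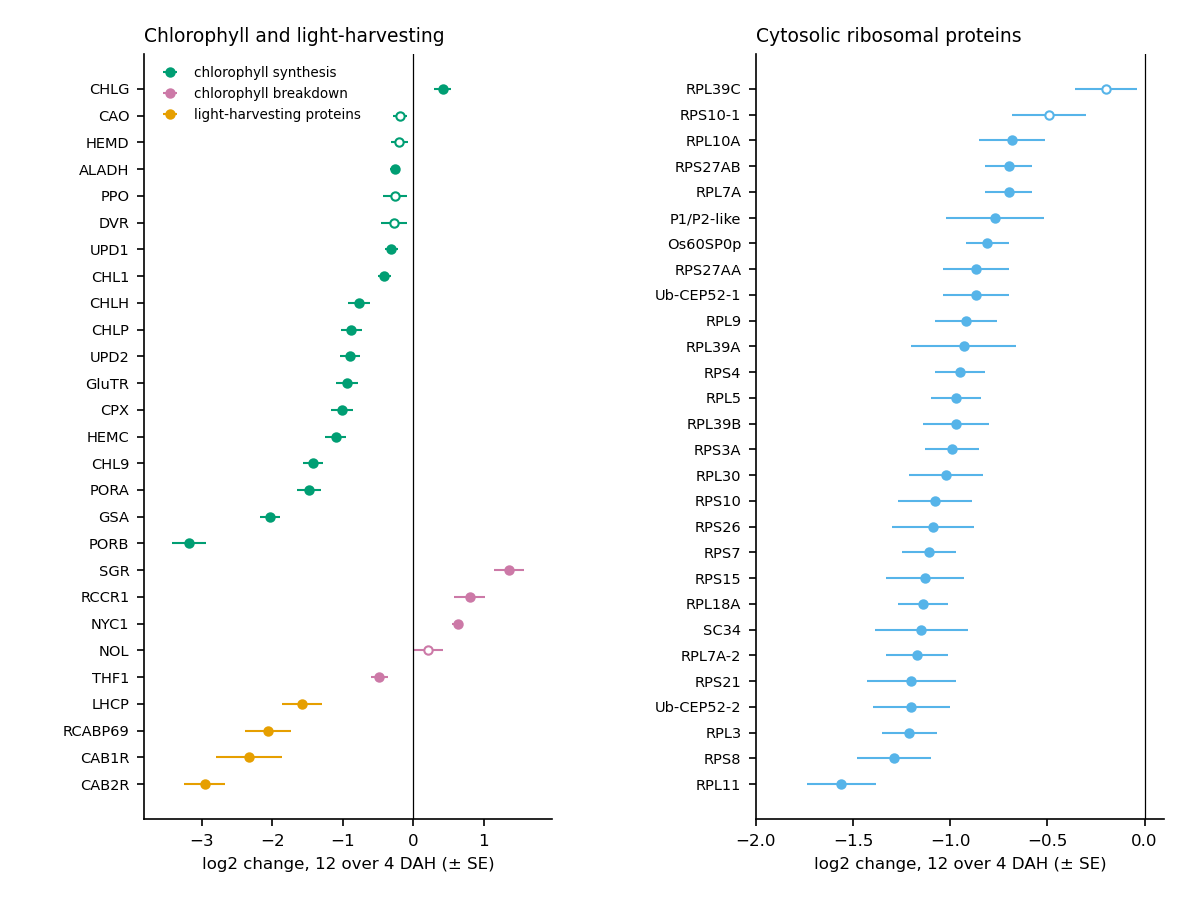
Log2 change in FL, 12 over 4 DAH (x axis, bars are SE), of each gene tested for chlorophyll synthesis, chlorophyll breakdown and light harvesting (left) and of cytosolic ribosomal proteins (right), filled where the adjusted p was below 0.05 and open otherwise. All 4 light-harvesting genes and 13 of 18 synthesis genes lie left of 0 with filled points, and all 28 ribosomal protein genes lie left of 0, 26 of them filled.

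Genes of the photosynthetic machinery proper moved less uniformly. Of 9 photosystem and electron transport genes, 2 fell (22.2%, against 15.2% of all tested genes) and 1 was called higher (11.1%, against 13.4%). LP02, a subunit of the oxygen-evolving complex, had 468, 399 and 357 CPM at 12 DAH, against 1198, 862 and 814 CPM at 4 DAH (-1.08 ± 0.19, adjusted p = 7.5e-05). PETE, the electron carrier plastocyanin, fell by 0.60. Of 7 Calvin cycle genes, RBCS-A, a Rubisco small subunit gene, fell, with 1736, 1112 and 1248 CPM at 12 DAH and 2837, 2140 and 2089 CPM at 4 DAH (-0.64 ± 0.13, adjusted p = 0.00028). A second small subunit gene, OsrbcS, averaged 1230 CPM at 12 DAH and 1313 CPM at 4 DAH and was not called (adjusted p = 0.6), and reads may be split between such copies. The calls of petC and FBPase as higher rested on the quantile normalization: their CPM groups overlapped, and without that step their log2 changes were 0.09 (adjusted p = 0.64) and 0.22 (adjusted p = 0.18). OsrcaA1, Rubisco activase, averaged 9108 CPM at 12 DAH and 10794 CPM at 4 DAH. It was the top gene of these libraries, so quantile normalization fixed its log2 change at 0.00, and without that step the change was -0.26 (adjusted p = 0.45). The call of PETE was lost without any of 3 single libraries (replicates 2 and 3 of 12 DAH, replicate 1 of 4 DAH), with an adjusted p of up to 0.15, and that of petC without any of 4 (up to 0.12).

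Cytosolic ribosomal protein genes fell nearly as a group. Of 28 tested, 26 fell, 13 of them by at least 2-fold, and none rose, against 15.2% of all tested genes that fell. The median log2 change was -0.98, and the range was -1.56 to -0.20. RPL11 had 12.7, 8.71 and 8.65 CPM at 12 DAH, against 31.7, 34 and 32 CPM at 4 DAH (-1.56 ± 0.18, adjusted p = 1.6e-07). Os60SP0p, the acidic protein of the ribosomal stalk, had 109, 95.4 and 94.7 CPM at 12 DAH, against 194, 182 and 168 CPM at 4 DAH (-0.81 ± 0.11, adjusted p = 1.3e-06). The 26 called genes had no overlapping groups, and the summed level of the 28 genes was 929 to 1179 CPM at 12 DAH and 1990 to 2107 CPM at 4 DAH. RPS10-1 and RPL39C were not called, with log2 changes of -0.49 and -0.20. At an unadjusted p below 0.05 no gene of the list rose, nor did any in edgeR or DESeq2. The calls of RPL39A and P1/P2-like were each lost without either of 2 libraries, replicate 1 of 4 DAH among them (adjusted p up to 0.12).

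Of 63 cell division genes, 6 fell (9.52%, against 15.2% of all tested genes) and 4 rose (6.35%, against 13.4%). These counts depended on the test, with 10 lower and 8 higher in edgeR and 10 lower and 9 higher in DESeq2. MCM2, a subunit of the replicative helicase, had 6.69, 8.3 and 7.07 CPM at 12 DAH, against 22, 30.3 and 28.2 CPM at 4 DAH (-1.65 ± 0.21, adjusted p = 7.1e-07). PCNA, the sliding clamp of DNA replication, had 6.64, 6.32 and 5.82 CPM at 12 DAH, against 12.2, 13.1 and 11.7 CPM at 4 DAH (-0.80 ± 0.15, adjusted p = 0.00011). Genes for histone H2B (H2B.9 and H2B.2) fell with them. The B-type cyclins were below 1 CPM in all 6 libraries. CYCD5-3, a D-type cyclin, rose by 0.37, and CYCD5-1 fell by 0.87. OsTUB6, a beta-tubulin and a gene outside the lists, had 93.5, 90.5 and 66.5 CPM at 12 DAH, against 413, 383 and 397 CPM at 4 DAH (-2.14 ± 0.17, adjusted p = 4.7e-10). Of 34 cell wall genes, 4 rose and 4 fell (11.8% each), shares near those of all tested genes. EXLA1, an expansin-like protein, fell by 1.04, and GLU2, a beta-1,4-glucanase, rose by 0.97. The calls of H2B.9 (adjusted p = 0.083) and H2B.2 (up to 0.21) were lost without replicate 1 of 4 DAH, and that of H2B.2 also without 3 other libraries.

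**Figure D2:**
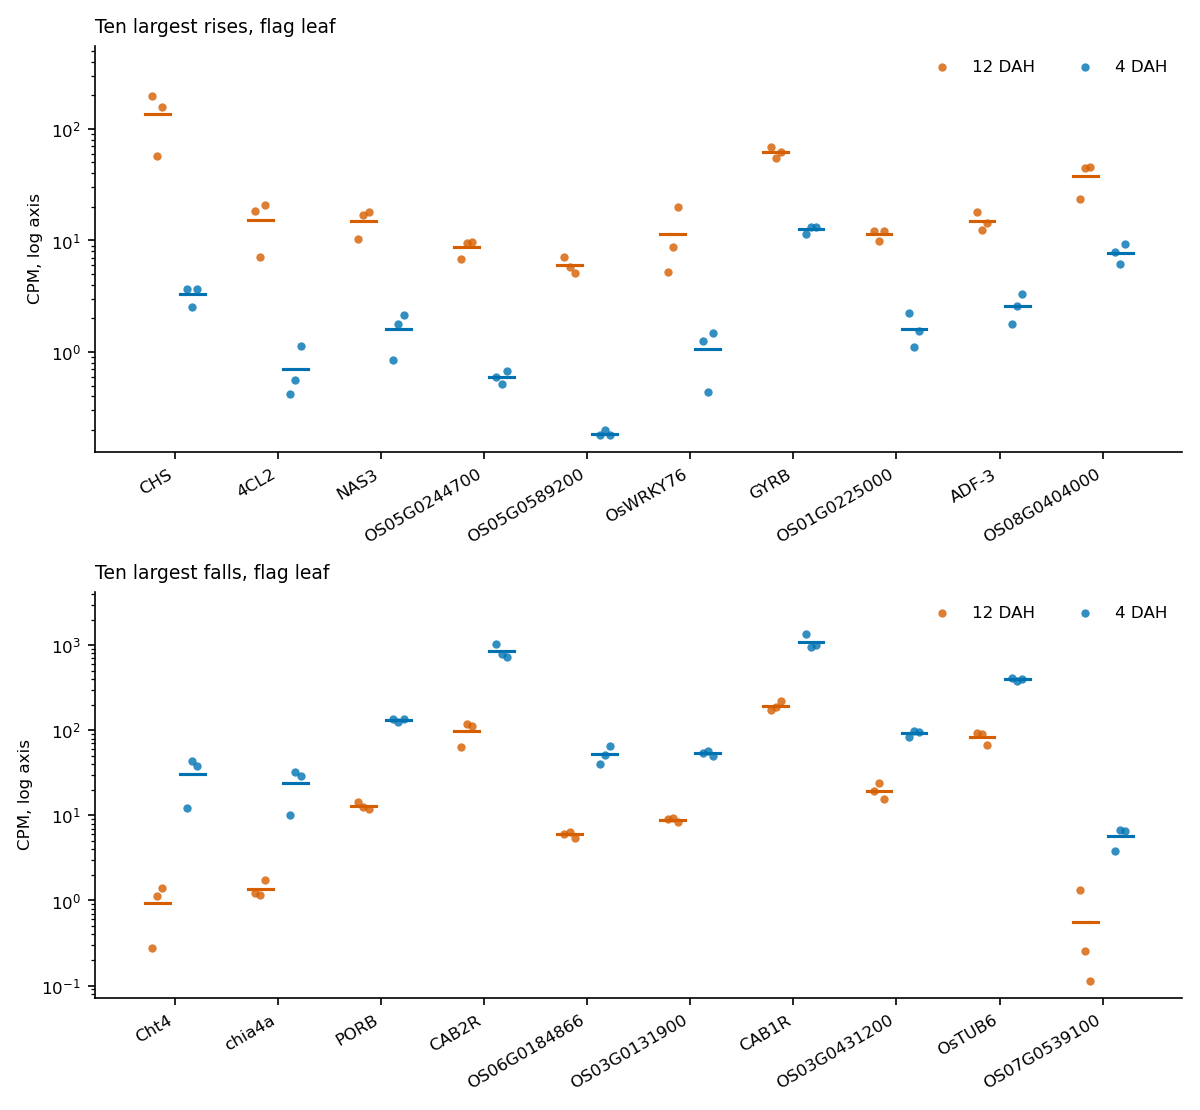
CPM in FL (log axis) of the 10 named genes with the largest rises (top) and the 10 with the largest falls (bottom). Points are single libraries and lines are means, with 12 DAH in orange left of 4 DAH in blue. In all 20 genes the 3 libraries of 12 DAH lie wholly above or wholly below those of 4 DAH, and the points of CHS at 12 DAH spread from 57.4 to 197 CPM.

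The largest rise among genes with a name was that of CHS, chalcone synthase, the entry enzyme of flavonoid synthesis. It had 197, 57.4 and 156 CPM at 12 DAH, against 3.66, 2.54 and 3.68 CPM at 4 DAH (4.78 ± 0.65, adjusted p = 2.4e-06). The libraries of 12 DAH differed among themselves more than 3-fold and were all far above those of 4 DAH. Cfi, chalcone isomerase, had 10.3, 6.16 and 12.1 CPM at 12 DAH, against 1.26, 1.19 and 1.32 CPM at 4 DAH (2.15 ± 0.31, adjusted p = 5.5e-06). These were the 2 tested genes of the flavonoid list. OS09G0354300, outside the list and described as similar to leucoanthocyanidin dioxygenase, had 2.96, 3.92 and 3.67 CPM at 12 DAH and 4.5, 5 and 4.79 CPM at 4 DAH and was not called (-0.32 ± 0.18, adjusted p = 0.18). Of 21 phenylpropanoid and lignin genes, 6 rose (28.6%, against 13.4% of all tested genes) and 1 fell (4.76%, against 15.2%). 4CL2, a 4-coumarate:CoA ligase that feeds both branches, had 18.2, 7.13 and 20.8 CPM at 12 DAH, against 0.42, 0.556 and 1.14 CPM at 4 DAH (3.11 ± 0.32, adjusted p = 3e-08). PAL06, a phenylalanine ammonia-lyase, had 32.5, 29.6 and 30.7 CPM at 12 DAH, against 8.46, 10.8 and 17 CPM at 4 DAH (1.40 ± 0.32, adjusted p = 0.0013). Replicate 2 of 12 DAH was the lowest of its group for CHS, 4CL2, Cfi and PAL06. The gene that fell, HCT3, a transferase-family protein, had 1, 6 and 2 reads at 12 DAH, against 55, 105 and 113 reads at 4 DAH.

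NAC transcription factors held more rises than falls, and WRKY factors moved in both directions. Of 14 NAC factors, 5 rose (35.7%, against 13.4% of all tested genes) and 1 fell (7.14%, against 15.2%). The family holds several known regulators of leaf senescence. OS07G0683200 had 7.68, 12.9 and 11 CPM at 12 DAH, against 2.34, 2.26 and 2.36 CPM at 4 DAH (1.78 ± 0.26, adjusted p = 5.4e-06). OS03G0327800, described as an NAP-like NAC factor, had 78.1, 106 and 109 CPM at 12 DAH, against 58.1, 55 and 48.1 CPM at 4 DAH (0.86 ± 0.14, adjusted p = 3.5e-05). In edgeR, in DESeq2, with a pseudocount of 0.1 and without quantile normalization 8 members rose, and without quantile normalization the call of the falling gene was lost. Of 6 WRKY factors, 2 rose (33.3%, against 13.4% of all tested genes) and 1 fell (16.7%, against 15.2%). Without quantile normalization 2 were called lower. The rising genes were OsWRKY76 and OsWRKY62, which lie in neighbouring genes and act in defence. OsWRKY76 had 5.21, 8.81 and 20.1 CPM at 12 DAH, against 1.26, 0.437 and 1.47 CPM at 4 DAH (2.43 ± 0.45, adjusted p = 0.00014). OsWRKY71 fell, with 13, 17.5 and 12.8 CPM at 12 DAH and 25.6, 29.1 and 33 CPM at 4 DAH (-0.91 ± 0.32, adjusted p = 0.035). The call of OsWRKY71 held only with all libraries or without replicate 2 of 12 DAH (adjusted p up to 0.11 without another library).

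Abscisic acid genes rose more often than they fell, with 12 of 28 higher (42.9%, against 13.4% of all tested genes) and 1 lower (3.57%, against 15.2%) and a median log2 change of 0.34. NCED3, which forms the precursor cleaved off carotenoids, had 3.95, 4.63 and 4.92 CPM at 12 DAH, against 1.44, 1.67 and 0.787 CPM at 4 DAH (1.25 ± 0.28, adjusted p = 0.0011). The rising genes included protein phosphatases of the signalling core (OsPP2C09, OsPP2C30, OsPP2C59), kinases (SAPK1, SAPK4, SAPK5, SAPK9) and Dhn1, a dehydrin. They also included ABA8OX2, which breaks the hormone down. ABA1, the zeaxanthin epoxidase at the start of the pathway, fell, with 37.1, 31.5 and 30.4 CPM at 12 DAH and 68.9, 93.3 and 98.9 CPM at 4 DAH (-1.31 ± 0.13, adjusted p = 2e-08). The calls of SAPK1, SAPK5 and SAPK9 were each lost without at least 1 of the 6 libraries (adjusted p up to 0.27).

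Jasmonate, ethylene and gibberellin genes moved in both directions. Of 29 jasmonate genes, 7 rose (24.1%, against 13.4% of all tested genes) and 5 fell (17.2%, against 15.2%). JAZ4, a repressor of jasmonate signalling, had 639, 554 and 554 CPM at 12 DAH, against 327, 338 and 341 CPM at 4 DAH (0.84 ± 0.07, adjusted p = 1e-09), and JAZ3 and JAZ11 rose by 0.46 and 1.16. The lipoxygenase genes LOX2.1 and LOX9 fell by 1.07 and 0.72, and the receptor gene COI1 fell by 0.37 with overlapping groups. OS03G0179900, which carries the synonym LOX2 and is counted among the 7 rises, rose by 1.36, but the study describes it as another kind of protein. Of 17 ethylene genes, 2 rose (11.8%) and 3 fell (17.6%), shares near those of all tested genes. Among them EIL1, a transcription factor of the pathway, fell by 0.77. ACS5 (also ACC5), an enzyme of ethylene synthesis, was among the falls but had 0 reads in all 3 libraries of 12 DAH and 14, 6 and 3 reads at 4 DAH, so that no fold is given. Of 9 gibberellin genes, 2 fell (22.2%) and 1 rose (11.1%). The synthesis genes KAO and CPS1 fell by 1.36 and 1.16, and GAMYB, a transcription factor acting in the response, rose by 0.58. The calls of COI1, LOX2.1, EIL1 and ACS5 were each lost without at least 1 of the 6 libraries (adjusted p up to 0.15).

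Auxin and cytokinin genes moved in both directions, with 16 of 81 higher (19.8%, against 13.4% of all tested genes) and 15 lower (18.5%, against 15.2%). Among the cytokinin response regulators of the fast-responding type, OsRR6, OsRR1 and OsRR2 were called lower. OsRR6 had 5.48, 4.28 and 4.58 CPM at 12 DAH, against 25.4, 19.5 and 15.5 CPM at 4 DAH (-1.78 ± 0.31, adjusted p = 5.8e-05), and OsRR1 and OsRR2 fell by 1.21 and 0.47. OsRR9 moved the other way, rising by 0.72. Of the cytokinin oxidases, which degrade the hormone, CKX11 rose by 1.34 and CKX4 fell by 0.73. The activating enzyme gene LOGL3 had 32.2, 23.7 and 22.9 CPM at 12 DAH, against 5.22, 6.63 and 9.08 CPM at 4 DAH (1.83 ± 0.22, adjusted p = 2.6e-07). On the auxin side, OsPIN1a, an efflux carrier, had 15.9, 21.2 and 20.3 CPM at 12 DAH, against 6.12, 4.41 and 3.58 CPM at 4 DAH (1.87 ± 0.23, adjusted p = 4.4e-07). Among the Aux/IAA repressors, IAA1, IAA8, IAA9, IAA10, IAA17, IAA20 and IAA21 fell, and IAA16 and IAA23 rose. The calls of OsRR2, OsRR9, IAA9, IAA16, IAA21 and IAA23 were each lost without at least 1 of the 6 libraries (adjusted p up to 0.2).

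In the sugar and water transport lists most genes were not called, and the called ones were mainly higher. Of 36 sugar transport and sucrose genes, 10 rose (27.8%, against 13.4% of all tested genes) and 2 fell. Os11N3 (OsSWEET14), a sugar exporter of the SWEET family, had 12.6, 19.3 and 15.8 CPM at 12 DAH, against 4.68, 4.61 and 3.86 CPM at 4 DAH (1.67 ± 0.21, adjusted p = 7.5e-07). OsSPS1, a sucrose phosphate synthase, had 75.7, 58.9 and 61.3 CPM at 12 DAH, against 38.8, 42.8 and 42.7 CPM at 4 DAH (0.66 ± 0.08, adjusted p = 2.2e-07). Both had groups without overlap. OsSPS3F, of the same enzyme family, fell by 0.33, and OsSUT2, a sucrose transporter of the vacuole membrane, rose by 0.26. Of 22 aquaporins, 7 rose (31.8%) and 1 fell. OsTIP1 (OsTIP1;2) had 32.9, 47 and 48.6 CPM at 12 DAH, against 18.9, 12.6 and 15 CPM at 4 DAH (1.47 ± 0.25, adjusted p = 5.5e-05). OsPIP1;3 rose by 1.20, and Lsi1, a silicon channel, rose by 1.10. The call of OsSPS3F was lost without replicate 3 of 12 DAH (adjusted p = 0.052), and that of OsSUT2 without 4 of the single libraries (up to 0.14).

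Of 19 phosphate genes, 8 rose (42.1%, against 13.4% of all tested genes) and 1 fell (5.26%, against 15.2%). OsPHO1;3, of a family of phosphate exporters, had 180, 184 and 190 CPM at 12 DAH, against 75.1, 87.5 and 94.3 CPM at 4 DAH (1.07 ± 0.22, adjusted p = 0.00038). Of the uptake transporters, OsPht1;13 and OsPht1;2 rose by 1.29 and 1.05, and OsPht1;1 fell, with 64.7, 65.3 and 67.4 CPM at 12 DAH and 116, 123 and 119 CPM at 4 DAH (-0.81 ± 0.21, adjusted p = 0.0035). Of 50 metal homeostasis genes, 6 rose (12%) and 10 fell (20%), shares near those of all tested genes. The balance depended on the test, with 8 higher and 13 lower in edgeR and 12 higher and 11 lower in DESeq2. NAS3, a nicotianamine synthase, had 10.4, 16.8 and 17.9 CPM at 12 DAH, against 0.84, 1.79 and 2.15 CPM at 4 DAH (2.64 ± 0.29, adjusted p = 9e-08). OsVIT1.2, a vacuolar iron transporter, had 36.3, 23 and 37.6 CPM at 12 DAH, against 6.54, 8.7 and 13.6 CPM at 4 DAH (1.73 ± 0.32, adjusted p = 0.00016). Among the 10 that fell were OsYSL2, OsYSL13 and OsYSL14, of the yellow stripe-like metal chelate transporters, and MTP1, MTP3 and MTP8, of the metal tolerance proteins, by 0.46 to 0.70 on the log2 scale. Of these, all but MTP1 lost their calls without at least 1 of the 6 libraries (adjusted p up to 0.25).

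Of 18 nitrogen assimilation genes, 4 rose (22.2%, against 13.4% of all tested genes) and 2 fell (11.1%, against 15.2%). Their median log2 change was 0.10, and -0.01 without quantile normalization. NIA1, nitrate reductase, had 132, 127 and 133 CPM at 12 DAH, against 76, 79.7 and 66.4 CPM at 4 DAH (0.81 ± 0.18, adjusted p = 0.0012). The ammonium transporter AMT3-2 rose by 0.73. GLN1-1, a cytosolic glutamine synthetase, rose by 0.53, and was not called without quantile normalization (adjusted p = 0.092). GLN1-2, the other cytosolic form, had 131, 128 and 138 CPM at 12 DAH and 136, 135 and 133 CPM at 4 DAH. Of 7 transporter genes that the study named, 6 rose (85.7%, against 13.4% of all tested genes). OS04G0209200 had 21.2, 29.8 and 21.3 CPM at 12 DAH, against 10.5, 11.2 and 12.6 CPM at 4 DAH (1.07 ± 0.21, adjusted p = 0.00038). GLN1-1 also lost its call without 4 of the single libraries (adjusted p up to 0.089). Of the 6 rising transporter genes, OS04G0573000 lost its call without any 1 of the 6 libraries (adjusted p up to 0.095). OS08G0455900, at 0.384 to 0.848 CPM at 12 DAH, lost it without 4 of them (up to 0.09). The transporter list was chosen on these samples and is not independent evidence of its direction.

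Of 37 genes for the breakdown of protein, 11 rose (29.7%, against 13.4% of all tested genes), 2 fell and 24 were not called, with a median log2 change of 0.05. They included subunits of the proteasome, the main cytosolic protease: OsRPN11 had 84, 102 and 99 CPM at 12 DAH, against 61.9, 63.3 and 63.6 CPM at 4 DAH (0.60 ± 0.10, adjusted p = 3.7e-05), and OsRPT1b, OsRPT5a, PAF1, OsPAA1 and OsPBB1 rose by 0.30 to 0.59. ATG12, of the autophagy pathway, rose by 0.63. FTSH1, a protease of the chloroplast membranes, had 1168, 847 and 955 CPM at 12 DAH, against 740, 676 and 638 CPM at 4 DAH (0.68 ± 0.08, adjusted p = 1.1e-07). FTSH2, called higher with overlapping groups, had a log2 change without quantile normalization that was not called (adjusted p = 0.48). The calls of PAF1, OsPAA1 and OsPBB1 were each lost without at least 1 of the 6 libraries (adjusted p up to 0.16).

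Stress-related genes moved in both directions. Of 40 heat shock genes, 9 fell (22.5%, against 15.2% of all tested genes) and 6 rose (15%, against 13.4%), with a median log2 change of -0.04, and in DESeq2 10 were lower and 9 higher. HSP81-2, a cytosolic HSP90 chaperone, had 311, 264 and 221 CPM at 12 DAH, against 832, 749 and 712 CPM at 4 DAH (-1.44 ± 0.14, adjusted p = 7.8e-09), and HSP81-1 and HSP81-3 fell by 0.96 and 1.75. HSP81-2 and HSP81-3 are similar neighbouring genes and may share reads. Among the heat shock factors, HSFA3, HSFC1A and HSFA9 rose by 1.23, 1.13 and 0.51, and HSFB2A and HSFB2C fell by 0.68 and 1.21. Of 62 oxidative stress genes, 14 fell (22.6%) and 4 rose (6.45%), while 7 rose in DESeq2 and 2 without quantile normalization. CAT-A, a catalase, had 41.8, 122 and 80.4 CPM at 12 DAH, against 283, 299 and 324 CPM at 4 DAH (-1.90 ± 0.32, adjusted p = 4.8e-05). The ascorbate peroxidases APX8 and APX2 fell by 0.73 and 0.96. The call of HSFB2A was lost without replicate 3 of either day (adjusted p up to 0.096).

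The largest falls among named genes were those of the chitinases Cht4 and chia4a, which act against fungal cell walls. Cht4 had 0.274, 1.12 and 1.41 CPM at 12 DAH, against 12.1, 43.1 and 37.9 CPM at 4 DAH (-3.90 ± 0.47, adjusted p = 3.6e-07), and chia4a had 1.21, 1.17 and 1.75 CPM at 12 DAH, against 10.2, 32.2 and 29 CPM at 4 DAH (-3.21 ± 0.41, adjusted p = 8.5e-07). Replicate 1 of 4 DAH was the lowest of its group in both, and the genes are neighbours of similar sequence that may share reads. Of the 18 defence genes, 4 fell (22.2%, against 15.2% of all tested genes) and 2 rose (11.1%, against 13.4%). Of 18 phytoalexin genes, 6 fell (33.3%, against 15.2%) and none rose. At an unadjusted p below 0.05, in edgeR and in DESeq2, 1 was higher. KS6 and CYP99A2, of the diterpenoid branch, fell by 1.09 and 1.40.

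Of 9 clock genes, 1 rose (11.1%, against 13.4% of all tested genes) and 1 fell (11.1%, against 15.2%). GI, GIGANTEA, a clock-associated regulator, had 39.9, 33.2 and 37 CPM at 12 DAH, against 7.56, 9.21 and 11.4 CPM at 4 DAH (1.93 ± 0.15, adjusted p = 2.4e-10). OsPRR73, a pseudo-response regulator, had 16.8, 21.3 and 31 CPM at 12 DAH, against 34.3, 65.8 and 121 CPM at 4 DAH (-1.44 ± 0.34, adjusted p = 0.002). The other 7 clock genes were not called, among them CCA1, a morning-phased factor, with means of 4323 CPM at 12 DAH and 4791 CPM at 4 DAH. Clock genes vary with the time of day, and the exact time of each harvest cannot be told apart from DAH. Of 19 genes of flowering and photoreceptors, 3 rose (15.8%) and 2 fell (10.5%), shares near those of all tested genes. CRYD, of the cryptochrome family, had 173, 111 and 116 CPM at 12 DAH, against 58.3, 70.3 and 75.5 CPM at 4 DAH (0.93 ± 0.14, adjusted p = 1.4e-05). Hd18 fell by 0.95, and MFT1, of the family of phosphatidylethanolamine-binding proteins, fell by 1.27.

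Several of the largest changes were in genes of other kinds. OS05G0589200, an RNA polymerase sigma factor-like protein, of a family that in plants directs the plastid polymerase, had 7.13, 5.81 and 5.14 CPM at 12 DAH, against 0.18, 0.199 and 0.179 CPM at 4 DAH (2.49 ± 0.11, adjusted p = 2.6e-15). GYRB, a DNA gyrase subunit, had 68.9, 55.2 and 61.8 CPM at 12 DAH, against 11.4, 13.3 and 13.2 CPM at 4 DAH (2.25 ± 0.14, adjusted p = 4.9e-12). MEL1, an Argonaute protein, had 4.66, 11.7 and 8.37 CPM at 12 DAH, against 1.26, 0.675 and 1.32 CPM at 4 DAH (2.06 ± 0.26, adjusted p = 6.4e-07). In each the libraries of 12 DAH were all above those of 4 DAH. Among the falls, OS03G0431200, similar to N-acetylglutamate synthase of arginine synthesis, had 19.4, 23.8 and 15.5 CPM at 12 DAH, against 84.2, 97.8 and 96.2 CPM at 4 DAH (-2.15 ± 0.15, adjusted p = 2.7e-11). OS03G0131900, an ankyrin-domain protein, fell by 2.41 and OS06G0184866, a pentatricopeptide repeat protein, fell by 2.85 on the log2 scale. Of 106 organelle-encoded genes tested, 2 rose (1.89%, against 13.4% of all tested genes) and 3 fell (2.83%, against 15.2%). Their summed level was 1383 to 2405 CPM at 12 DAH and 1338 to 3131 CPM at 4 DAH, and depends on how many of their transcripts poly(A) selection kept.

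**Figure D3:**
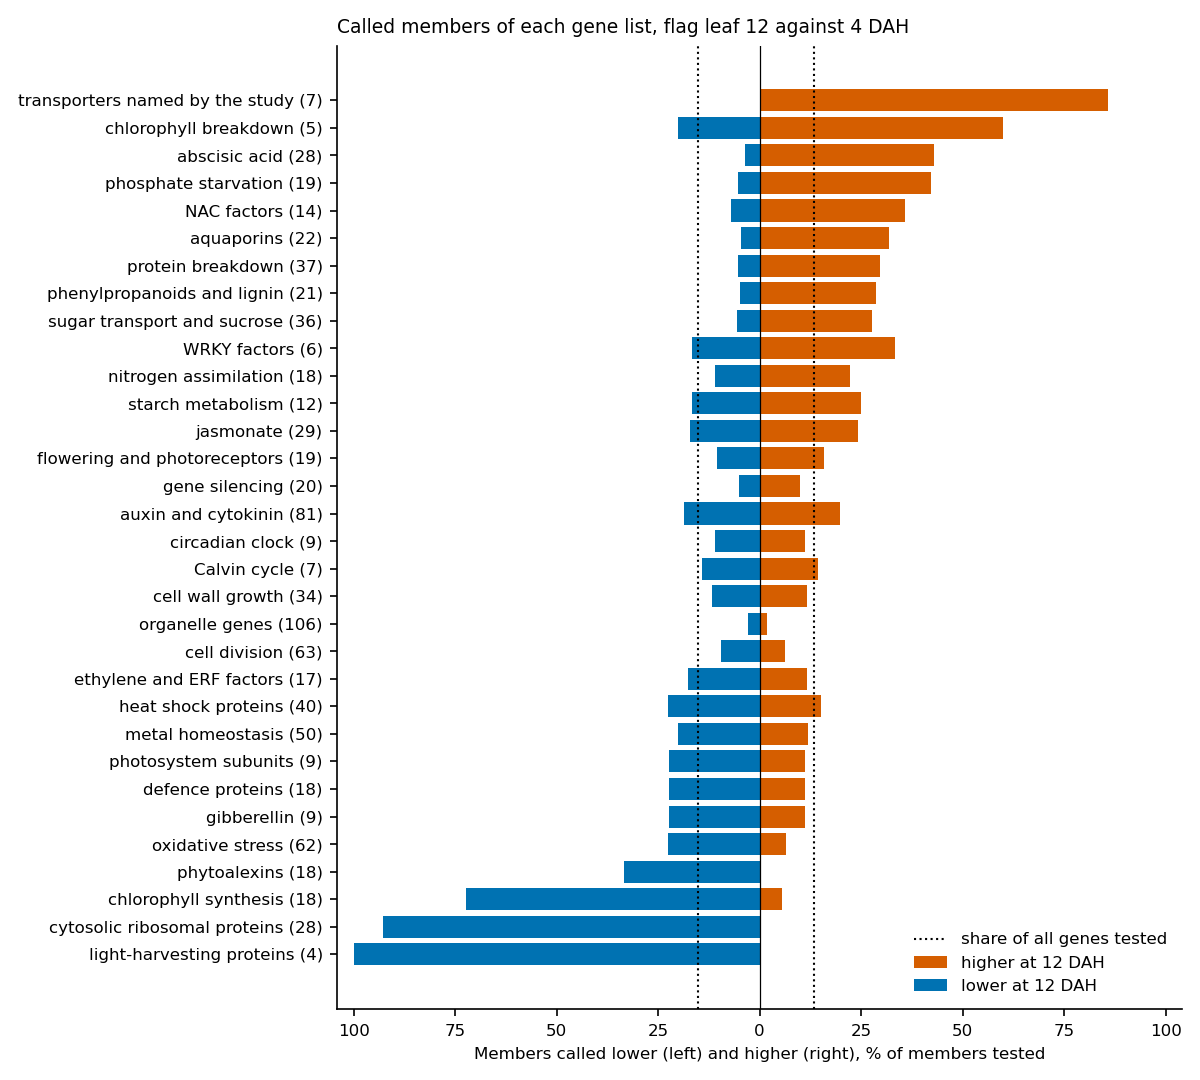
Percent of the tested members of each gene list called lower (blue, left) or higher (orange, right) in FL at 12 than at 4 DAH, for lists with at least 4 tested members (number in parentheses). The dotted lines mark the share of all tested genes, 15.2% lower and 13.4% higher. The bars of light-harvesting, ribosomal protein and chlorophyll synthesis genes reach far left, and those of the study's transporters, chlorophyll breakdown, abscisic acid and phosphate genes reach right.

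SL was sampled on the same days and is the closest comparison. Of the genes that rose in FL, 1923 (65.3%) also rose in SL, which is 50.2% of those that rose in SL. Of those that fell in FL, 2101 (62.7%) also fell in SL (62% of those that fell in SL). In 184 genes (0.834%) the change between 4 and 12 DAH differed between leaves by an interaction test, with the FL step above the SL step in 71 and below it in 113. This count depended on single libraries. Without replicate 1 of FL 12 DAH it was 1360, and without replicate 2 or 3 it was 45 or 21. Without replicate 2 or 3 of FL 4 DAH it was 77 or 83, and without single SL libraries it was 47 to 278.

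4CL2 had the larger step in FL. In SL it had 2, 0.64 and 0.788 CPM at 12 DAH and 0, 0.384 and 0.155 CPM at 4 DAH, and its FL step exceeded its SL step by 2.27 ± 0.45 (adjusted p = 0.013). At such low SL levels log2(CPM + 1) understates the SL step and so widens this difference. Over 22 alternatives the difference was 1.72 to 2.73 and stayed called in 14. hkt6, a cation transporter, rose in FL (20.3, 23.6 and 23.9 CPM at 12 DAH, against 8.46, 10.5 and 12.2 CPM at 4 DAH). In SL hkt6 had 26.6, 22.3 and 19.3 CPM at 12 DAH and 29, 22.7 and 27.7 CPM at 4 DAH, a difference of steps of 1.33 ± 0.26 (adjusted p = 0.012). The nitrogen genes NIA1, GLN1-2 and GDH (glutamate dehydrogenase) had smaller steps in FL. GLN1-2 had 148, 136 and 156 CPM in SL at 12 DAH, against 52.1, 68 and 64.8 CPM in SL at 4 DAH, so that FL was 1.20 ± 0.21 below SL in its step (adjusted p = 0.0062). For NIA1 the FL step was 1.16 ± 0.26 below (adjusted p = 0.024), and for GDH 1.27 ± 0.23 below (adjusted p = 0.0069). CHS rose by 2.06 in SL against 4.78 in FL, but this difference of 2.71 ± 0.92 was not called (adjusted p = 0.15). Without single libraries of either leaf the difference for NIA1 was lost in 8 of 12 cases (adjusted p up to 0.093). Without replicate 3 of FL 12 DAH those for 4CL2 (adjusted p = 0.069) and hkt6 (adjusted p = 0.052) were lost, and that for 4CL2 also without replicate 2 of SL 12 DAH (adjusted p = 0.053).

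**Figure D4:**
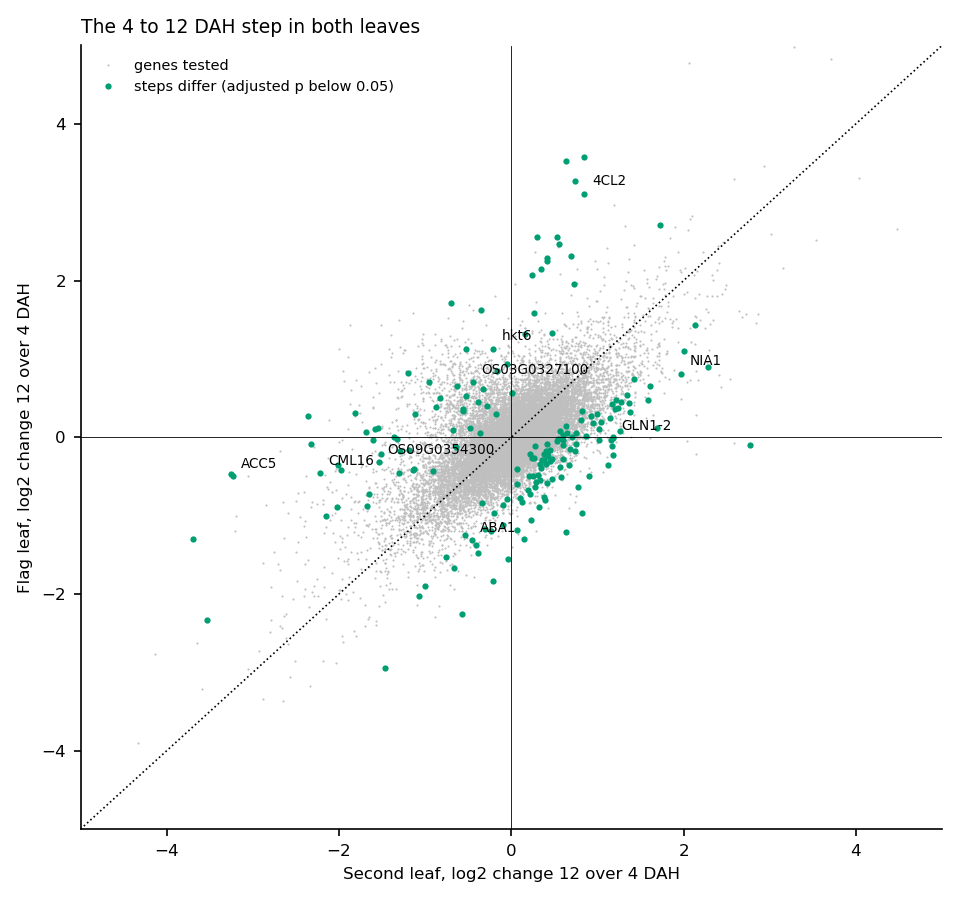
Log2 change from 4 to 12 DAH in FL (y axis) against that in SL (x axis) for 22057 genes (grey), with the 184 genes whose steps differed in green and most of the named ones labelled. The dotted line marks equal steps. 4CL2 and hkt6 lie above it, and NIA1 and GLN1-2 lie below it.

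The next interval, 20 against 12 DAH, shares the libraries of 12 DAH, whose errors enter both steps with opposite signs, so values are given side by side only. From 12 to 20 DAH 1969 genes rose (8.93%) and 1793 fell (8.13%). The light-harvesting genes had medians of -2.19 in the first step and -0.45 in the second. The ribosomal protein genes had medians of -0.98 and 0.46, with 26 lower in the first step and 13 higher in the second. GI rose in both, by 1.93 and 2.86, but averaged 22.1 CPM at 36 DAH, against 515 and 600 CPM at 28 and 44 DAH. OsWRKY76 was at 1.05, 11.4 and 0.847 CPM on average at 4, 12 and 20 DAH. CHS averaged 3.29, 137, 56.5, 48.7, 13.7 and 4.14 CPM at 4, 12, 20, 28, 36 and finally 44 DAH. OsTUB6 averaged 398, 83.5, 29.5, 21.2, 46.6 and 20.5 CPM over the same days. Of the ribosomal protein genes, Os60SP0p averaged 181, 99.9, 176, 283, 111 and 301 CPM over these days. RPL11 averaged 32.6, 10, 13.7, 40.3, 15.6 and 42.4 CPM. Both means were higher at 28 and 44 DAH than at 4 DAH, and lower at 36 DAH than at 4 DAH. PORB averaged 131, 12.9, 11.1, 18.3, 97.7 and 44.2 CPM, so that its mean at 36 DAH was above those of 28 and 44 DAH and below that of 4 DAH. GYRB averaged 12.7, 62, 124, 227, 42.1 and 233 CPM, and was lower at 36 than at 28 and 44 DAH.

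**Figure D5:**
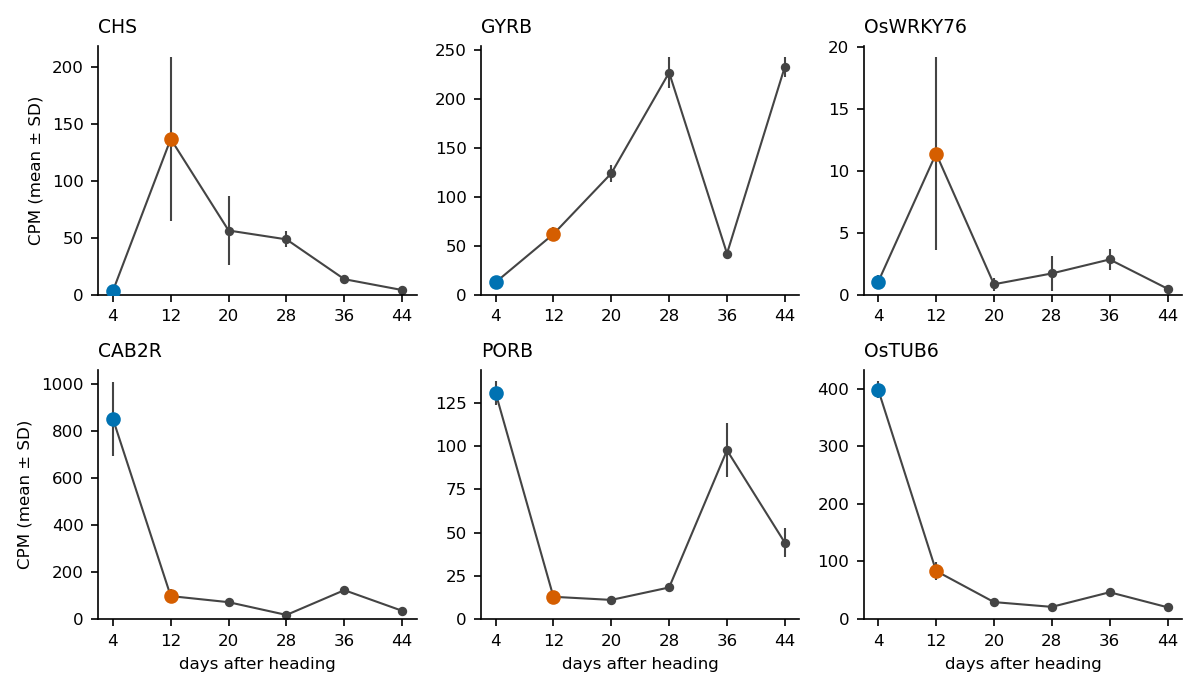
Mean CPM in FL (y axis, bars are SD of 3 libraries) of 6 genes at 4, 12, 20, 28, 36 and finally 44 DAH (x axis), with 12 DAH in orange and 4 DAH in blue. CHS and OsWRKY76 are highest at 12 DAH, CAB2R and OsTUB6 are highest at 4 DAH, and GYRB and PORB move at 36 DAH against their neighbouring days.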

How the data were processed

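The authors trimmed paired-end reads of stranded, poly(A)-selected libraries with cutadapt 1.2.1, aligned them with TopHat2 2.0.10 to IRGSP-1.0 and counted them on genes with HTSeq 0.6.1. The deposited signal values are CPM of edgeR with TMM-scaled library sizes, for 38026 genes, with no logarithm or quantile normalization. How the counting treated reads shared by similar genes is not given in the sources used here. In all libraries every value was a whole number of reads within 0.01 reads, and these reads were recovered by dividing by the step of each column. Depth over all 36 libraries was 5713546 to 29789199 reads on genes.

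For the main comparison log2(CPM + 1) was quantile-normalized, as in the study's methods, and limma 3.58.1 (R 4.3.3, trend) was fitted to 36 libraries in 12 groups of leaf and time point, for genes that reached a log2 value of 1 in 3 or more libraries, with the contrasts FL 12 minus 4 DAH and FL step minus SL step. Called genes had an adjusted p below 0.05 (Benjamini-Hochberg). The procedure was also run on simulated counts whose spread was taken from these data. Alternatives were a pseudocount of 0.1, no quantile normalization, other filters, fewer libraries, a replicate block, and leaving out replicates or single libraries (single libraries chosen after seeing the data). Further alternatives were edgeR 4.0.16 and DESeq2 1.42.0 on the recovered reads of 35 libraries. Replicate 1 of FL 28 DAH was left out of these count tests. Names came from the deposited table, the study's descriptions and the synonyms of a RefSeq table of another assembly, which was used for names only (23729 identifiers matched). The 34 gene lists were matched by these names. The members and lists were chosen with earlier results of these data known. Named genes were the 10 largest rises and falls with a name and no overlap, of each list the largest rise, the largest fall and the highest level, the 5 largest differences of steps in each direction, and genes the study names; further members were named for their role after their values were seen. One gene is not reported here.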

Additional observations from a re-analysis of the deposited data

Results flagged for a closer look

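In 12 named genes the change from 4 to 12 DAH differed between FL and SL by the limma interaction test (adjusted p below 0.05 over 22057 genes), given here as FL step minus SL step on the log2 scale. The FL step was above the SL step for 4CL2 (2.27, adjusted p = 0.013), ACS5 (ACC5, 2.73, adjusted p = 1.5e-08), CML16, a calmodulin-like protein (1.76, adjusted p = 0.034), hkt6 (1.33, adjusted p = 0.012), OS09G0354300, similar to leucoanthocyanidin dioxygenase (1.22, adjusted p = 0.015), and the NAC factor OS03G0327100 (1.15, adjusted p = 0.042). It was below the SL step for GDH (-1.27, adjusted p = 0.0069), GLN1-2 (-1.20, adjusted p = 0.0062), NIA1 (-1.16, adjusted p = 0.024), CYP90B2, a brassinosteroid synthesis enzyme (-1.09, adjusted p = 0.021), OS07G0113500, a pentatricopeptide repeat protein (-1.00, adjusted p = 0.016), and ABA1 (-0.85, adjusted p = 0.024). ACS5 had 0 reads in all 3 libraries of 12 DAH of each leaf, and at 4 DAH it had 14, 6 and 3 reads in FL and 67, 103 and 261 reads in SL, so its difference of steps is one of its levels at 4 DAH, and edgeR did not call it (adjusted p = 1). CML16 had 7.84, 9.88 and 8.42 CPM at 12 DAH and 10.9, 13.7 and 14.4 CPM at 4 DAH in FL, and 3.87, 3.2 and 8.53 CPM at 12 DAH and 27.4, 24.6 and 27.3 CPM at 4 DAH in SL. Over 22 or 23 alternatives each difference kept its sign, and it stayed called in 8 (OS03G0327100) to 21 (GDH) of them. Many of the losses came from leaving out single libraries.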

How the results depend on the processing

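The counts of 2947 rising and 3351 falling genes stayed within 1.5 times under every alternative except leaving out replicates. They ranged from 1526 to 3404 and from 1710 to 3779 when replicates or single libraries were left out, and from 3271 to 5620 of the 6298 calls remained. The count of 1139 genes past 2-fold was 1875 with a pseudocount of 0.1, 2330 with edgeR, 2358 with DESeq2, and 968 to 1848 with replicates or libraries left out. The 184 genes with different steps in FL and SL became 503 with DESeq2 and 6 to 1360 with replicates or libraries left out, and the cause was not tested. None of the 119 named genes changed direction under any alternative, and 7 to 18 of them lost their call without a single library. Replicate numbers did not pair the samples, as the deviations of same-numbered libraries correlated at -0.44, -0.09 and -0.43. In a fit with a replicate block, 2802 genes rose, 3203 fell, 1133 passed 2-fold and 167 steps differed. Of 396 values of the gene lists under alternatives, 44 moved. The sign of 7 list medians changed, all of them medians between -0.04 and 0.10, in the lists of cell wall growth, metal homeostasis, nitrogen assimilation and starch. Counts of rising genes became 7 and 8 of cell division genes (4) with a pseudocount of 0.1 and edgeR, and 2 of oxidative stress genes (4) without quantile normalization. The count of falling gene silencing genes (1) was 4 without quantile normalization and in edgeR. The median of photosystem subunits, -0.06, was -0.23 without quantile normalization and -0.26 with edgeR, and that of the Calvin cycle, 0.00, was -0.13 in both. Depth limits genes near 1 read, worth 0.0358 to 0.06 CPM here, and the floor of 3 reads covers counting error only.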

Other observations

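In FL at 4 DAH, replicate 1 held low levels of several grain storage protein genes. Of 8 such genes, 7 were at 0 or at most 0.0565 CPM in all 3 libraries of 12 DAH. In replicate 1 of 4 DAH these 7 had 0.06 to 0.54 CPM, against 0 to 0.119 CPM in replicates 2 and 3. The floor of 3 reads was worth 0.18 CPM in replicate 1, and GLUD-1, GLUB-5, GLUA-3 and GLUB-4 were at or below it. GLUA-2 had 10.9, 8.96 and 8.59 CPM at 12 DAH and 6.36, 6.2 and 7.58 CPM at 4 DAH (log2 change 0.50 ± 0.19, limma adjusted p = 0.053).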
